A study of Mus musculus with 4 samples.

Results

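CD8 T cells of the ischemic mouse brain were picked out of single-cell RNA profiles by their own transcripts. A cell counted as a CD8 T cell when it held at least 2 UMIs (unique molecular identifiers, each marking 1 captured RNA molecule) of the CD3 genes Cd3d, Cd3e and Cd3g and at least 1 UMI of Cd8a or Cd8b1. It also had no UMI of Cd4, Foxp3 or Trdc, under 2 UMIs of the NK receptor genes Klre1, Klra1, Klra7 and Klrb1c, and under 3 UMIs of the B cell genes Cd79a, Cd79b and Ms4a1. The phagocyte genes Lyz2, Cst3, Ctsb, Apoe, C1qa, C1qb and C1qc gave at most 2% of its UMIs. In all, 272 of 10841 cells past the quality limits met these conditions. The groups were C57/BL6 mice at 14 days and at 5 days after tMCAO, the transient occlusion of the middle cerebral artery, which blocks and then reopens blood flow to one hemisphere and models stroke. Both groups had the occlusion, and no uninjured hemisphere was analysed here. From each ischemic hemisphere, cells with high surface CD45, the common leukocyte antigen, were sorted, so leukocytes with low CD45 were under-represented by design. Each day had 2 libraries, and the labels do not say how many mice went into a library. The p-values therefore measure the spread between libraries, which may be technical.

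CD8 T cells carry a receptor for peptides held on MHC class I and use the CD8 coreceptor, a dimer made from the products of Cd8a and Cd8b1. Activated ones kill target cells with granzymes and perforin from their granules and release chemokines and interferon gamma. Circulating naive or central memory cells carry the lymph node homing receptor Ccr7, while cells lodged in tissue often carry Cxcr6 and Cd69.

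Day 14 held 146 and 94 CD8 T cells in its libraries, against 15 and 17 in the day 5 libraries. The comparisons by day thus rest on 32 cells for day 5. The sets compared with them were 102 conventional CD4 T cells, defined by the same limits with at least 1 Cd4 UMI and no Cd8a or Cd8b1 UMI, and all 1020 other T cells. The CD4 set had 65 and 30 cells on day 14 but only 4 and 3 on day 5. The other T cells numbered 619 and 327 on day 14 and 40 and 34 on day 5. They include gamma delta T cells, T cells with NK receptors and 320 T cells with no Cd4, Cd8a or Cd8b1 UMI. CD8 T cells had a median of 2725 and 3010 UMIs on day 14, against 2837 and 2107 on day 5. No barcode of a CD8 T cell was shared between libraries, although pairs of libraries shared 5 to 16 barcodes in all.

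Both Cd8a and Cd8b1 were detected in 159 of 240 cells on day 14 (66.3%) and in 21 of 32 on day 5 (65.6%). Cd8b1 alone was seen in 57 and 8 cells and Cd8a alone in 24 and 3. The genes lie 35932 bases apart on chromosome 6 (GRCm38, Cd8b1 at 71322788 to 71337494 and Cd8a at 71373427 to 71379173). Most members were well inside the limits, with 186 holding 6 or more CD3 UMIs and 176 holding 4 or more CD8 UMIs. Just inside were 13 cells with 2 CD3 UMIs and 36 with 1 CD8 UMI, and just outside were 17 cells with 1 CD3 UMI. A larger group of 320 cells, 280 on day 14 and 40 on day 5, failed only through having no Cd8a or Cd8b1 UMI. They count among the other T cells, and whether some were CD8 T cells with no captured Cd8a or Cd8b1 molecule was not tested. The phagocyte limit alone kept out 106 cells, 77 on day 14 and 29 on day 5; 38 members held 1 to 2% and 24 cells just outside held 2 to 3%.

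CD8 T cells were a larger part of the sorted leukocytes at the later day. They made up 5.66% and 4.07% of cells in the day 14 libraries, against 0.599% and 0.493% in the day 5 libraries. The means were 4.87% ± 1.12 on day 14 and 0.546% ± 0.0745 on day 5 (SD, n = 2 each), a difference of 4.32 percentage points, and the days did not overlap. With 2 libraries against 2, the two-sided exact permutation test cannot go below p = 0.33, which was its value. Exact 95% binomial intervals, which cover counting error only, were 4.80 to 6.62% and 3.30 to 4.96% on day 14 and 0.335 to 0.985% and 0.288 to 0.789% on day 5. Shares of a sort do not give cell numbers, so a rise of CD8 T cells and a fall of other leukocytes cannot be told apart.

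Among T cells the order was the other way round. CD8 T cells were 19.1% and 22.3% of T cells on day 14, against 27.3% and 33.3% on day 5. The means were 20.7% ± 2.29 on day 14 and 30.3% ± 4.29 on day 5 (SD, n = 2 each), a difference of -9.60 percentage points (exact permutation p = 0.33). The day 5 values rest on 15 of 55 and 17 of 51 T cells, and their counting intervals overlapped those of day 14. Without the phagocyte limit the difference was -7.46 points, and with a limit of 1% it was -5.26 points.

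**Figure D1:**
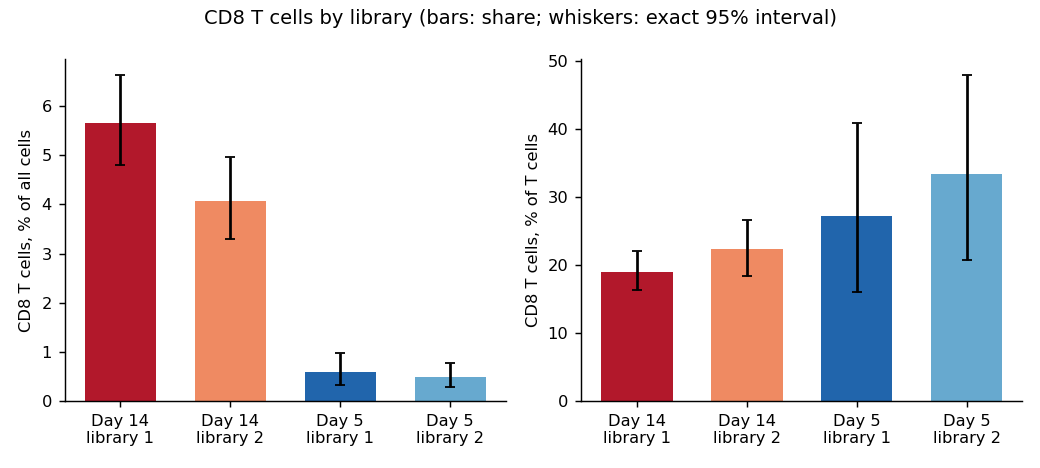
Share of CD8 T cells in each library, as a percentage of all cells past the quality limits (left) and of T cells (right). Bars are shares and whiskers exact 95% binomial intervals; of all cells the day 14 libraries held 5.66% and 4.07% and the day 5 libraries 0.599% and 0.493%, while of T cells the order was reversed with overlapping intervals.

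The first comparison across genes set CD8 T cells against conventional CD4 T cells of the same libraries. CD8 T cells had higher levels of a cytotoxic and chemokine group led by Klrd1, Gzmk, Ly6c2, Ccl5 and Nkg7, and lower levels of the costimulatory receptors Tnfrsf4, Tnfrsf18 and Icos and of the checkpoint receptor Ctla4. Of 963 genes tested, 14 (1.45%) were higher and 21 (2.18%) lower, 3.63% in all, at an adjusted p under 0.05 (edgeR quasi-likelihood F test on UMI sums with the library as a block, Benjamini-Hochberg). DESeq2 split its calls otherwise, with 31 higher and 20 lower. The median log2 fold change of all genes tested was 0.02. Genes of the membership rule were left out of every gene test. The filter on low counts could keep a gene through 1 set alone. Klrd1 and Gzmk entered through CD8 T cells and Tnfrsf4 through CD4 T cells. Levels below are CPM, the UMIs of a gene per 1000000 UMIs of the set, and since each count is a 3′ tag of 1 molecule it is not divided by gene length.

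Klrd1 encodes CD94, the partner chain of NKG2 receptors on NK cells and activated CD8 T cells. It stood at 326 and 313 CPM on day 14 and 276 and 344 CPM on day 5 in CD8 T cells, against 31.5 and 20.5 CPM on day 14 and no UMI on day 5 in CD4 T cells. All 4 CD8 values lay above all CD4 values, with a log2 fold change of 3.69 ± 0.38 (SE, edgeR adjusted p = 2.03e-06). Without the phagocyte limit it was 2.08 with an adjusted p of 0.0625. Gzmk, a granzyme of memory-type CD8 T cells, was at 141 and 173 CPM on day 14 and 217 and 194 CPM on day 5 in CD8 T cells, against 6.30 and 30.7 CPM on day 14 and no UMI on day 5 in CD4 T cells (log2 fold change 3.42 ± 0.51, edgeR adjusted p = 0.000264). The sets did not overlap for Gzmk either. The day 5 zeros of CD4 T cells come from 7 cells.

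Ccl5 is a chemokine that draws T cells and monocytes. CD8 T cells held 6203 and 5935 CPM on day 14 and 11650 and 9083 CPM on day 5, against 2180 and 982 CPM and 1722 and 247 CPM in CD4 T cells of the same days. Each CD8 value was above every CD4 value, with a log2 fold change of 2.46 ± 0.24 (edgeR adjusted p = 1.75e-06). Ly6c2, a surface protein that also marks inflammatory monocytes, was at 2322 and 2691 CPM on day 14 and 1752 and 1464 CPM on day 5 in CD8 T cells. CD4 T cells had 328 and 726 CPM on day 14 and 0 and 494 CPM on day 5 (log2 fold change 2.56 ± 0.30, edgeR adjusted p = 1.12e-05). Without library 1 of day 14 the adjusted p for Ly6c2 was 0.0625.

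Nkg7, a granule protein needed for degranulation, was at 2027 and 2709 CPM on day 14 and 2126 and 2583 CPM on day 5 in CD8 T cells. CD4 T cells had 459.9 and 552 CPM on day 14 and 1033 and 2223 CPM on day 5, so the sets overlapped through the 3 CD4 cells of library 2 of day 5 (log2 fold change 1.86 ± 0.25, edgeR adjusted p = 7.43e-05). The call was lost without either day 14 library (adjusted p = 0.14 without library 1 and 0.146 without library 2). Ctsw, a cathepsin of cytotoxic cells, was at 436 and 479 CPM on day 14 and 335 and 431 CPM on day 5 in CD8 T cells, against 164 and 51.1 CPM and 138 and 988 CPM in CD4 T cells (1.78 ± 0.34, edgeR adjusted p = 0.00455). Its adjusted p was 0.581 without library 1 and 0.622 without library 2 of day 14. In the fixed list of 10 cytotoxic granule genes, 5 were tested, 4 were higher (Nkg7, Gzmk, Ctsw, Gzmb) and Srgn, the granule proteoglycan, did not pass (log2 fold change -0.84, adjusted p = 0.0878). The list's median was 1.86, beside 0.02 over all genes tested, of which 1.45% were called higher. Gzmk passed the filter on low counts through CD8 T cells alone, so the list's count and median partly follow from the filter.

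Gzmb encodes granzyme B, which triggers apoptosis in target cells. CD8 T cells had 218 and 804 CPM on day 14 and 217 and 387 CPM on day 5, and CD4 T cells 113 and 20.5 CPM on day 14 and 482 and 0 CPM on day 5. Its call (log2 fold change 2.03 ± 0.50, edgeR adjusted p = 0.0301) was lost without library 2 of day 14, where the log2 fold change was 0.57 (adjusted p = 0.829), and without library 1 of that day (adjusted p = 0.619). Ccl4, a chemokine of activated T cells, was higher in CD8 T cells (1.43 ± 0.32, edgeR adjusted p = 0.012) but at 0.56 with an adjusted p of 0.802 without the phagocyte limit. Without either day 14 library its adjusted p was 0.581 and 0.304. Bcl2, which protects lymphocytes from apoptosis, was at 259.7 and 351 CPM on day 14 and 217 and 323 CPM on day 5 in CD8 T cells, against 145 and 174 CPM and 68.9 and 247 CPM in CD4 T cells (1.00 ± 0.25, edgeR adjusted p = 0.0324). Klk8, a serine protease gene, and Plac8 passed narrowly, both with an adjusted p of 0.0487.

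Tnfrsf4 encodes OX40, a costimulatory receptor induced on activated CD4 and regulatory T cells. It stood at 17.6 and 11.9 CPM on day 14 and 0 on day 5 in CD8 T cells, against 397 and 818 CPM on day 14 and 1171 and 1729 CPM on day 5 in CD4 T cells. The sets were far apart in every library, with a log2 fold change of -5.44 ± 0.35 (edgeR adjusted p = 2.54e-09). Tnfrsf18, which encodes GITR and is the next of the named genes along chromosome 4, 9551 bases from Tnfrsf4 in the GRCm38 annotation, was at 90.3 and 119 CPM on day 14 and 78.7 and 108 CPM on day 5 in CD8 T cells. CD4 T cells had 422 and 736 CPM on day 14 and 1240 and 247 CPM on day 5 (-2.47 ± 0.26, edgeR adjusted p = 2.03e-06). Icos was at 196 and 199 CPM on day 14 and 98.4 and 21.5 CPM on day 5 in CD8 T cells, against 706 and 378 CPM on day 14 and 551 and 0 CPM on day 5 in CD4 T cells, so library 2 of day 5, with 3 CD4 cells, went the other way (-1.47 ± 0.25, edgeR adjusted p = 0.000961). Of 7 costimulation genes, 5 were tested and these 3 were lower, beside 2.18% of all genes tested. Cd28 and Cd27 did not pass. The list median was -1.47, and Tnfrsf4 passed the filter on low counts through CD4 T cells alone, so count and median partly follow from the filter.

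Other genes lower in CD8 T cells were Ctla4 (-1.62), Hif1a (-1.67), the transcription factor of the oxygen response, the actin-capping gene Capg (-1.67), the adaptor gene Samsn1 (-1.47) and Cd5 (-1.32), a brake on T cell receptor signals. Cd5 was at 81.4 and 89.3 CPM on day 14 and 59.1 and 43.1 CPM on day 5 in CD8 T cells, against 233 and 205 CPM on day 14 and 138 and 247 CPM on day 5 in CD4 T cells (edgeR adjusted p = 0.00659). In the list of 13 T cell receptor signalling genes, 11 were tested, none was higher, and Cd5 and Cd6 were lower, beside 2.18% of all genes tested. Ctla4 is also a marker of regulatory T cells. The CD4 set was limited to cells with no Foxp3 UMI, but it held UMIs of other regulatory markers. Foxp3, Il2ra, Ikzf2 and Ctla4 summed to 517 and 450 CPM on day 14 and 1791 and 247 CPM on day 5 in CD4 T cells. In CD8 T cells the sums were 134 and 182 CPM on day 14 and 59.1 and 0 CPM on day 5. The part of regulatory T cells without a Foxp3 UMI in the lower genes was not tested. Of 10 tissue residence genes, 5 were tested and Rgs2 was lower, while Cxcr6, which did not pass, was at 269 and 232 CPM in CD8 T cells against 214 and 205 CPM in CD4 T cells on day 14. Leaving out library 1 or library 2 of day 14 cut the calls to 4 and 6, while leaving out library 1 of day 5 gave 61.

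**Figure D2:**
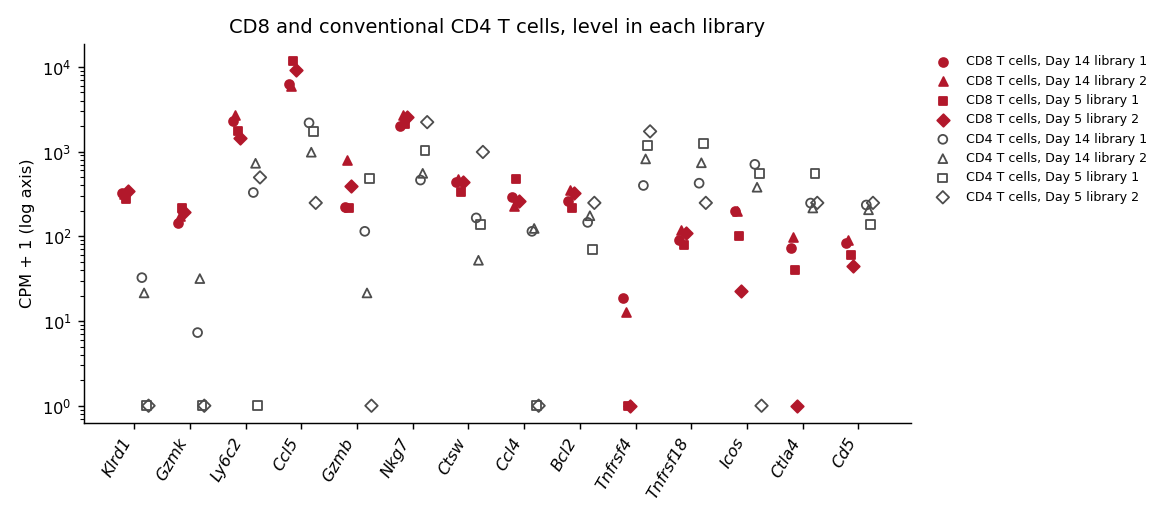
CPM + 1 (log axis) of named genes in CD8 T cells (filled, red, left of each pair) and conventional CD4 T cells (open, grey), with a symbol for each library. Klrd1, Gzmk and Ccl5 are higher in CD8 T cells in all 4 libraries and Tnfrsf4 is lower in all 4; the day 5 CD4 values rest on 4 and 3 cells.

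The windows around the start sites of 4 of these genes are given to show the DNA next to genes at opposite ends of the comparison. Each runs from 250 bases before to 50 after the RefSeq start (GRCm38.p6, 5′ to 3′ on the strand of the gene). Capitals mark TGTGGT or its reverse complement ACCACA, the core letters bound by RUNX factors, and AGGTGTGA or TCACACCT, letters bound by T-box factors, searched on both strands; the motifs do not overlap in these windows. Nkg7 (chr7:43436888-43437187, plus strand) and Gzmb (chr14:56262285-56262584, minus strand) were higher in CD8 T cells, and Tnfrsf4 (chr4:156013445-156013744, plus strand) and Tnfrsf18 (chr4:156026072-156026371, plus strand) were lower.
Nkg7: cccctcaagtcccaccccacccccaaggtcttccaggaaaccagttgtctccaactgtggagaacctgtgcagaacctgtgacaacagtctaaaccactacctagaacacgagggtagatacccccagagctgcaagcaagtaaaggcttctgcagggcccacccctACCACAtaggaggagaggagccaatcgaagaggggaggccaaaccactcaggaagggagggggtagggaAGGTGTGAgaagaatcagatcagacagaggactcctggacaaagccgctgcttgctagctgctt
Gzmb: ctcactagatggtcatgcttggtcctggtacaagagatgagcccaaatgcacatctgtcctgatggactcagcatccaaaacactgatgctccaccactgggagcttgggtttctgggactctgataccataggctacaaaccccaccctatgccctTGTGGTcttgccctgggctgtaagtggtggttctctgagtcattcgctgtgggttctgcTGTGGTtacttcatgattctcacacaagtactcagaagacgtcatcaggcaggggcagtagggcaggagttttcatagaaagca
Tnfrsf4: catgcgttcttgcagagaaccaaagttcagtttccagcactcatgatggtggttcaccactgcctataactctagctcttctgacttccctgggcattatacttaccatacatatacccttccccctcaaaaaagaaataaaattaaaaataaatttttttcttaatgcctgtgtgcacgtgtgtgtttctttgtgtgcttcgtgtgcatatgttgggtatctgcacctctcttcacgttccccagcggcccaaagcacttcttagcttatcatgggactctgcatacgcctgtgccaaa
Tnfrsf18: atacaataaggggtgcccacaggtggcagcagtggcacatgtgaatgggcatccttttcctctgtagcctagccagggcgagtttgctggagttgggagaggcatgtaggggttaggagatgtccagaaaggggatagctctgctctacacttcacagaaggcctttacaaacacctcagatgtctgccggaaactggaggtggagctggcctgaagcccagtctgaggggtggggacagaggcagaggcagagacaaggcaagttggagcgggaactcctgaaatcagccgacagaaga

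The Nkg7 window holds 1 RUNX match and 1 T-box match, the Gzmb window 2 RUNX matches, and the Tnfrsf4 and Tnfrsf18 windows neither. Over the 32851 windows of this length outside chromosome 18, which was left out, 16.8% hold the RUNX letters and 1.28% the T-box letters. Windows were found for 7 of the 11 named genes higher in CD8 T cells, and 4 of the 7 (Gzmb, Ly6c2, Nkg7 and Plac8) had the RUNX letters in at least 1 window, while 2 (Nkg7 and Plac8) had the T-box letters. Of the 10 matched genes lower in CD8 T cells, 0 had the RUNX letters and 1 (Samsn1) the T-box letters. Some genes have several windows, which overlap for Ly6c2 and Sdf4, so genes and not windows are counted for the named genes. The shares over the 32851 windows are per window and so are not in the same unit. By window, the RUNX letters were in 5 of 9 for the higher genes and 0 of 14 for the lower genes. The T-box letters were in 2 of 9 and 1 of 14. A match is a run of letters and not a bound site.

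Against all other T cells, which number more on both days, CD8 T cells differed in more genes. Of 2765 genes tested, 61 (2.21%) were higher and 102 (3.69%) lower, 5.9% in all (edgeR adjusted p under 0.05, library as a block). The lower group included genes of interleukin 17 producing and gamma delta T cells, the regulatory T cell genes and the immediate early genes. Markers of other cell types moved too: the neutrophil genes S100a8 (-2.38) and S100a9 (-1.26) were lower in CD8 T cells, and H2-Ab1 was higher (1.07, edgeR adjusted p = 0.0485). The fixed dendritic cell markers, H2-Ab1 among them, summed to 4233 and 4879 CPM on day 14 and 23760 and 15150 CPM on day 5 in CD8 T cells. Other T cells had 2446 and 5152 CPM on day 14 and 15750 and 510 CPM on day 5, so this sum went the other way in library 2 of day 14. The MHC class II UMIs sat in a few cells, described below. The 4 neutrophil markers summed to 52.8 and 26.8 CPM on day 14 and 39.4 and 172 CPM on day 5 in CD8 T cells, against 132 and 188 CPM on day 14 and 52.3 and 170.1 CPM on day 5 in other T cells, and their part in the other differences was not tested. Il17a was at 22.0 and 47.6 CPM on day 14 and 0 on day 5 in CD8 T cells, against 828 and 614 CPM on day 14 and 178 and 151 CPM on day 5 in other T cells (-4.39 ± 0.27, adjusted p = 9.38e-09). Cd163l1, a scavenger receptor of interleukin 17 producing gamma delta T cells, had no UMI in 3 of the CD8 sums and 2.98 CPM in the other, against 355 and 236 CPM on day 14 and 136 and 397 CPM on day 5 in other T cells. Of 9 helper lineage genes, 4 were tested and Il17a, Maf and Rora were lower, beside 3.69% of all genes tested. The list median was -2.61, beside -3.36e-05 over all genes. Il17a passed the filter on low counts through the other T cells, so count and median partly follow from the filter.

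Of the regulatory T cell markers, Ikzf2, Il2ra and Ctla4 were all lower (3 of 3 tested), beside 3.69% of all genes tested. Il2ra passed the filter on low counts through the other T cells alone, so the count partly follows from the filter. Il2ra, the high-affinity chain for interleukin 2, had 4.40 and 0 CPM on day 14 and 0 on day 5 in CD8 T cells, against 64.8 and 96.8 CPM on day 14 and 168 and 151 CPM on day 5 in other T cells. Areg, a growth factor gene, had 0 and 5.95 CPM on day 14 and 0 on day 5 in CD8 T cells, against 92.2 and 171 CPM on day 14 and 105 and 189 CPM on day 5 in other T cells. The other set was defined to hold Foxp3-positive and Trdc-positive cells, so the rule itself set this part of its makeup.

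CD8 T cells were again higher for Gzmk (3.47 ± 0.27), Ccl5 (1.86 ± 0.15), Nkg7 (1.81 ± 0.15) and Ly6c2 (1.67 ± 0.14), each with an edgeR adjusted p of 2.27e-07 or less. These calls share the CD8 sums with the CD4 comparison and are not independent of it. Dapl1, a gene of resting CD8 T cells, was at 176 and 95.3 CPM on day 14 and 78.7 and 64.6 CPM on day 5 in CD8 T cells, against 15.0 and 19.0 CPM on day 14 and 10.5 and 75.6 CPM on day 5 in other T cells (2.97 ± 0.34, adjusted p = 1.13e-05). The interferon-induced genes Ifit3 (1.38 ± 0.17), Ifit1 (0.89) and Ifi213 (0.91) were higher. Of the list of 15 interferon response genes, all tested, these 3 passed and none was lower, beside 2.21% of all genes tested higher (list median 0.49). Against conventional CD4 T cells the list looked otherwise: 12 were tested with a median of -0.18, Plac8 was higher, Ifi27l2a was lower (-0.95, edgeR adjusted p = 0.012), and Ifit3 (0.63) and Ifit1 (-0.01) did not pass. Cxcr3, a receptor for interferon-induced chemokines, was at 209 and 169.7 CPM on day 14 and 138 and 151 CPM on day 5 in CD8 T cells, against 115 and 118 CPM on day 14 and 157 and 94.5 CPM on day 5 in other T cells (0.75 ± 0.17, edgeR adjusted p = 0.00794). Conventional CD4 T cells held more Cxcr3 than CD8 T cells on day 14, at 296 and 276 CPM, and 0 and 494 CPM on day 5. Against them Cxcr3 did not pass (-0.46, edgeR adjusted p = 0.391).

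Several immediate early genes were lower in CD8 T cells than in all other T cells. Over all genes tested, 3.69% were lower and 2.21% higher. Of 11 immediate early genes, 9 were tested, and Junb, Nr4a1, Jun, Fos and Dusp1 were lower while Dusp2 was higher, with a list median of -0.89. Against conventional CD4 T cells, 6 were tested with a list median of -0.43. Only Junb was lower there, and the other 5 did not pass. Nr4a1, which marks recent T cell receptor signals, was at 115 and 59.5 CPM on day 14 and 158 and 194 CPM on day 5 in CD8 T cells, against 304 and 302 CPM on day 14 and 398 and 359 CPM on day 5 in other T cells (-1.55 ± 0.20, edgeR adjusted p = 4.21e-05). Conventional CD4 T cells had 158 and 153 CPM of Nr4a1 on day 14 and 276 and 0 CPM on day 5 (-0.62, edgeR adjusted p = 0.36). Cxcr6 (-0.80) and Ccr2 (-0.88), a monocyte and T cell homing receptor, and Il7r (-1.20), the interleukin 7 receptor chain, were also lower than in all other T cells. Without library 1 or 2 of day 14 the calls numbered 24 and 36, and Gzmb was lost (adjusted p = 0.683 and 0.329).

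By day, the CD8 T cells themselves differed in few genes of known T cell function. Of 2648 genes tested, 19 (0.718%) were higher and 22 (0.831%) lower on day 14, 1.55% in all (edgeR adjusted p under 0.05). Among the 19 higher genes, 9 were ribosomal protein genes or pseudogenes and 5 were predicted genes with Gm names, which leaves Wdr89, Xcl1, Apobec3, Ifi27l2a and Plac8. Rpl9-ps6, named as an example after its values were seen, had 936 and 771 CPM on day 14, against 19.7 and 86.1 CPM on day 5. In B cells of the same libraries the same gene had 1112 and 872 CPM on day 14, against 44.2 and 13.6 CPM on day 5, and in NK cells 967 and 846 CPM, against 5.65 and 0 CPM. Wdr89 had 2166 and 2170 CPM on day 14 and 138 and 517 CPM on day 5 in CD8 T cells, and 2111 and 2175 CPM on day 14 and 321 and 244 CPM on day 5 in B cells. The log2 fold changes of Wdr89 were 2.84 ± 0.35 in CD8 T cells, 2.96 in B cells and 3.01 in NK cells. The submitters' notes name Cell Ranger 3.0.1 for all libraries, but the file headers name that version for day 5 and nothing for day 14. Day and upstream processing therefore cannot be told apart for these genes. The same holds for every other comparison by day here, shares of cells included.

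**Figure D3:**
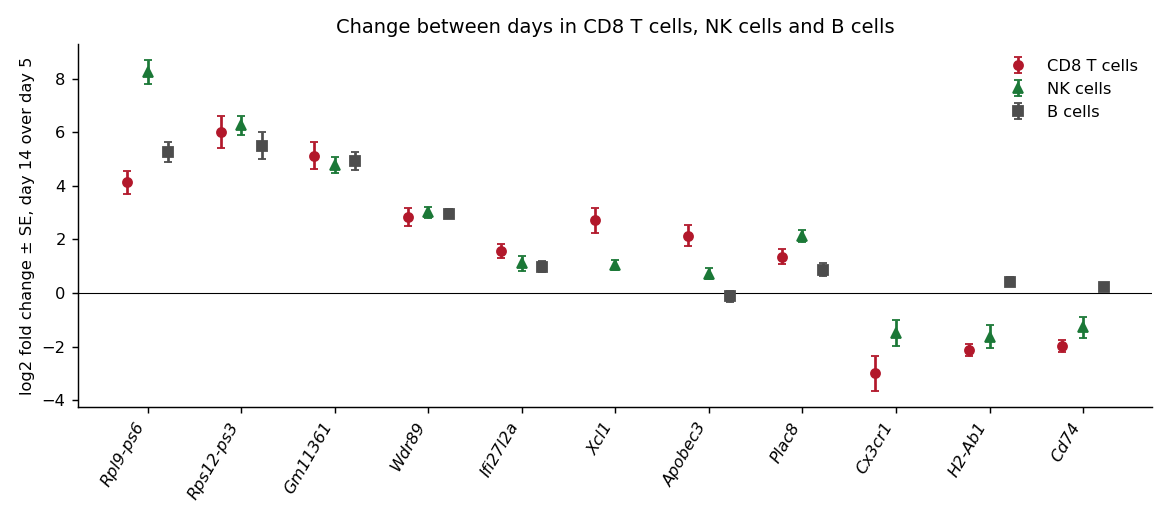
Log2 fold change of day 14 over day 5 (points, with SE) for named and example genes in CD8 T cells, NK cells and B cells; a missing point was not tested in that cell set. The ribosomal copies Rpl9-ps6 and Rps12-ps3 and Wdr89 shift upward in all 3 cell sets, while Xcl1 stands at 2.71 in CD8 T cells and 1.05 in NK cells.

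Xcl1, a chemokine that attracts cross-presenting dendritic cells, was higher on day 14. It was at 251 and 262 CPM on day 14, against 39.4 and 43.1 CPM on day 5, where each library held only 2 UMIs of it. The days did not overlap, and the log2 fold change was 2.71 ± 0.46 (edgeR adjusted p = 0.00681). The call was lost without either day 14 library (adjusted p = 0.165 and 0.123), with DESeq2 (0.077) and with a phagocyte limit of 1% (0.0572), all at log2 fold changes above 2. In NK cells it was at 1761 and 1849 CPM on day 14, against 1135 and 763.5 CPM on day 5 (1.05, edgeR adjusted p = 0.00116), and the difference between the cell sets was not tested. In T cells with NK receptors it was at 1082 and 1893 CPM on day 14 and 643 and 1412 CPM on day 5, and in CD4 T cells at 12.6 and 51.1 CPM on day 14.

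Apobec3, a cytidine deaminase that restricts retroviruses, was at 304 and 387 CPM on day 14, against 78.7 and 86.1 CPM on day 5 (2.14 ± 0.38, edgeR adjusted p = 0.0101). Its adjusted p was 0.0598 with DESeq2. Apobec3 was also higher on day 14 in NK cells (0.72, edgeR adjusted p = 0.0498) but did not pass in B cells (-0.125, adjusted p = 0.85). Ifi27l2a, an interferon-induced gene, was at 2560 and 2661 CPM on day 14, against 1280 and 581 CPM on day 5 (1.57 ± 0.26, edgeR adjusted p = 0.00496). Plac8, also on the interferon list, was at 803 and 994 CPM on day 14, against 256 and 495 CPM on day 5 (1.35 ± 0.29, edgeR adjusted p = 0.0305), and without library 1 of day 5 its adjusted p was 0.147. The median of the 15 interferon response genes, all tested, was 0.96, beside 0.02 over all genes tested. Ifi27l2a and Plac8 were the 2 called higher and none was called lower, beside 0.718% and 0.831% of all genes tested. They were also higher on day 14 in other cells: Ifi27l2a had a log2 fold change of 1.11 in NK cells (edgeR adjusted p = 0.0268) and 0.97 in B cells (adjusted p = 0.0371), and Plac8 of 2.13 in NK cells (adjusted p = 1.29e-05), while its 0.87 in B cells did not pass (adjusted p = 0.079). The other 13 did not pass: Ifit1, for example, was at 174 and 194 CPM on day 14 and 158 and 237 CPM on day 5.

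Cytotoxic genes did not pass by day in either direction. Of 10 granule genes 8 were tested, with a median of 0.11. Nkg7 stood at 2027 and 2709 CPM on day 14 and 2126 and 2583 CPM on day 5 and Gzmk at 141 and 173 CPM on day 14 and 217 and 194 CPM on day 5. Gzma, a granzyme of NK cells and effector T cells, ranged more within a day than between days, at 19.8 and 244 CPM on day 14 and 492 and 86.1 CPM on day 5. Of 10 naive or circulating genes 8 were tested and none passed (list median 0.87), among them Tcf7, the memory and naive factor, at 130 and 125 CPM on day 14 and 98.4 and 43.1 CPM on day 5. None of the 4 tested checkpoint genes, 13 T cell receptor signalling genes, 7 cell cycle genes and 8 MHC class I genes passed. Of the osteopontin list, 5 were tested and none passed; Spp1, the gene of osteopontin, was at 209 and 351 CPM on day 14 and 374 and 194 CPM on day 5. With 32 cells on day 5, a p above the threshold does not show that levels were alike.

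The 22 genes lower on day 14 were mostly of another kind. They included the MHC class II genes H2-Ab1, H2-Aa, H2-Eb1, H2-DMa and H2-DMb2 with their chaperone gene Cd74. Tyrobp and Fcer1g, adaptors of myeloid and NK cells, were also lower. Cx3cr1 was lower too, at 17.6 and 11.9 CPM on day 14, against 197 and 64.6 CPM on day 5. It is both a listed microglial marker and 1 of the 12 listed effector and memory factors. Of these 12, 7 were tested and Cx3cr1 alone passed, with a list median of 0.19. H2-Ab1 was at 1035 and 1155 CPM on day 14, against 6378 and 3874 CPM on day 5 (-2.14 ± 0.22, edgeR adjusted p = 8.31e-05), and Cd74 at 2278 and 2578 CPM on day 14, against 12400 and 7942 CPM on day 5. The fixed dendritic cell markers, among them H2-Aa, H2-Ab1 and Cd74, summed to 4233 and 4879 CPM in CD8 T cells of day 14 and 23760 and 15150 CPM on day 5, with Xcr1, Clec9a and Flt3 at 0 in both day 5 sums. The 9 microglial markers summed to 498 and 351 CPM on day 14 and 1142 and 1205 CPM on day 5. The part of the microglial markers in these differences was not tested. Cx3cr1 lost its call without library 1 of day 5 (adjusted p = 0.652).

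The MHC class II UMIs sat in a few cells. Counting Cd74, H2-Aa, H2-Ab1 and H2-Eb1 together, 11 of 240 CD8 T cells on day 14 (4.58%, exact 95% interval 2.31 to 8.05%) and 4 of 32 on day 5 (12.5%, 3.51 to 29.0%) held 20 or more, and every other CD8 T cell held 5 or fewer. Those cells carried 91.7% of the MHC class II UMIs of CD8 T cells on day 14 and 98.7% on day 5. Their median total was 7165 UMIs and 2234 genes, against 2690 UMIs and 1088 genes in the remaining 257 cells. Medians of CD3 UMIs were 7 and 8, so these cells held fewer CD3 UMIs for their depth. By day, the CD3 medians were 8 and 8 on day 14 and 5 and 8 on day 5. Of the 15 cells, 14 held an Nkg7 UMI and 12 a Ccl5 UMI, against 251 and 236 of the 257 other cells. Their median of 9 Ccl5 UMIs, at the greater depth, was below the 17 of the other cells, and NK cells express both genes too. The limit of 20 was set after the values were seen.

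The 15 cells were chosen by the class II UMIs themselves, so the values without them describe where those UMIs lay and test nothing about the difference by day. In the other cells Cd74 had a log2 fold change of -0.64, H2-Aa of 0.74 and H2-Ab1 of 2.01, none of which passed, and H2-Eb1, H2-DMa and H2-DMb2 were not tested. Over all genes, 18 were then higher and 8 lower. Leaving out both these cells and the ribosomal genes and pseudogenes gave 7 higher and 1 lower of 2300 genes. With the same limit, 20 or more UMIs were held by 32 of 946 other T cells of day 14 (3.38%) and by 4 of the 74 of day 5 (5.41%), all 4 of them in library 1. Other T cells showed no gap at the limit, with 17 UMIs in the highest cell below it and 20 in the lowest above it. Among NK cells 14 of 455 on day 14 (3.08%) and 5 of 201 on day 5 (2.49%) held 20 or more. Whether these barcodes held a T cell together with another cell was not tested.

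**Figure D4:**
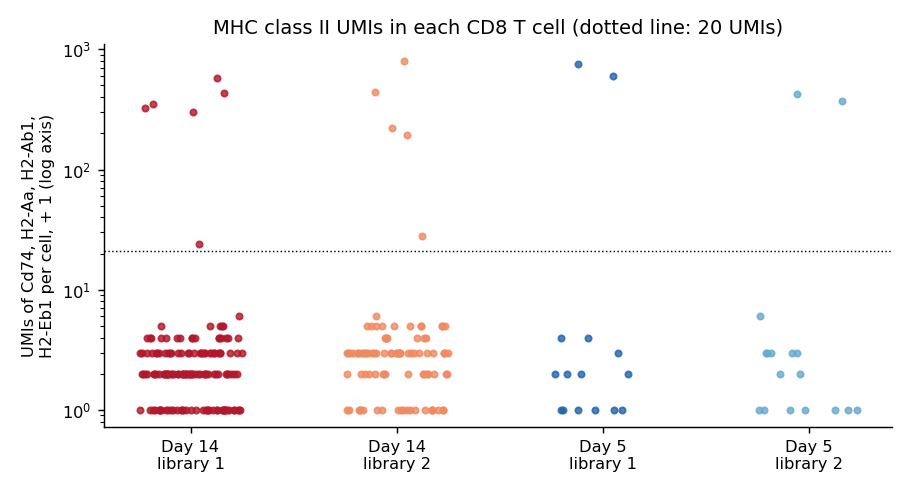
UMIs of Cd74, H2-Aa, H2-Ab1 and H2-Eb1 in each CD8 T cell, plus 1 (log axis), by library, with points spread sideways for view and a dotted line at 20 UMIs. Each library shows a gap above 5 UMIs, with 6 and 5 cells above the line on day 14 and 2 and 2 on day 5.

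The day effect was also compared between sets. Against conventional CD4 T cells, 5 of 963 genes (0.519%) had a day effect that was more negative in CD8 T cells, and 0 a more positive one (edgeR set by day term). They were Cd74, H2-Ab1, H2-Aa, H2-Eb1 and Klf2, the first 4 of them the class II genes described above, and the CD4 side rests on 7 day 5 cells. Against all other T cells, 0 of 2765 genes passed (0%), with 163 at an unadjusted p under 0.05; another tool was not run for this term. The count was 24 without library 1 and 13 without library 2 of day 5, and 6 without library 1 of day 14.

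Shares of CD8 T cells with a UMI of a state gene were compared at equal depth, as the chance of at least 1 UMI in a draw of 1000 UMIs from each cell, averaged over cells; no CD8 T cell had fewer. Nkg7 was expected in 80.2% and 89.2% of cells on day 14 and in 90.4% and 87.7% on day 5, and Ccl5 in 81.8% and 88.5% on day 14 and 97.8% and 85.4% on day 5. Without thinning, Nkg7 was seen in 95.2% and 100% of cells on day 14 and in all cells on day 5. In B cells, which should lack these genes, the thinned shares were at most 2.61% for Nkg7 and 9.47% for Ccl5, with median depths of 1958 and 2116 UMIs on day 14 and 1379 and 1207 on day 5. On day 5, 42 of 52 and 48 of 67 B cells were deep enough to be thinned. CD4 T cells of day 14 had 25.5% and 29.7% for Nkg7.

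Of 26 state genes, 9 had shares that did not overlap between days. Xcl1 was at 16.7% and 17.4% on day 14, against 3.20% and 4.59% on day 5, a difference of 13.2 percentage points, and Ly6c2 at 69.3% and 77.9% on day 14, against 63.4% and 55.0% on day 5, a difference of 14.4 points. Cxcr6 was lower on day 14, at 23.0% and 22.7%, against 25.7% and 37.5% on day 5 (-8.73 points). Gzmk (-4.18), Tcf7 (4.46), Lag3 (2.69), Cd69 (1.93) and Ifng (-1.73) were also among them, by smaller margins. Each of these gives p = 0.33, the smallest value the exact permutation allows, so none of the 9 is called different between days and their number shows no change by itself. Thinning to 1500 UMIs left 5 genes without overlap, Xcl1 among them.

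Gzmb separated the libraries of day 14 from each other, at 12.7% and 26.2% of cells, and the day 5 values of 14.4% and 22.4% lay between them. Gzma was at 1.48% and 8.66% on day 14 and 17.8% and 5.81% on day 5, so the days overlapped and the libraries of each day stood apart. Pdcd1, the gene of PD-1, was at 3.79% and 6.20% on day 14, and on day 5 it was seen in library 2 (13.7%) and not in the 15 cells of library 1. The residence integrins Itgae and Itga1 and the terminal effector marker Klrg1 were expected in under 5% of cells in every library.

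**Figure D5:**
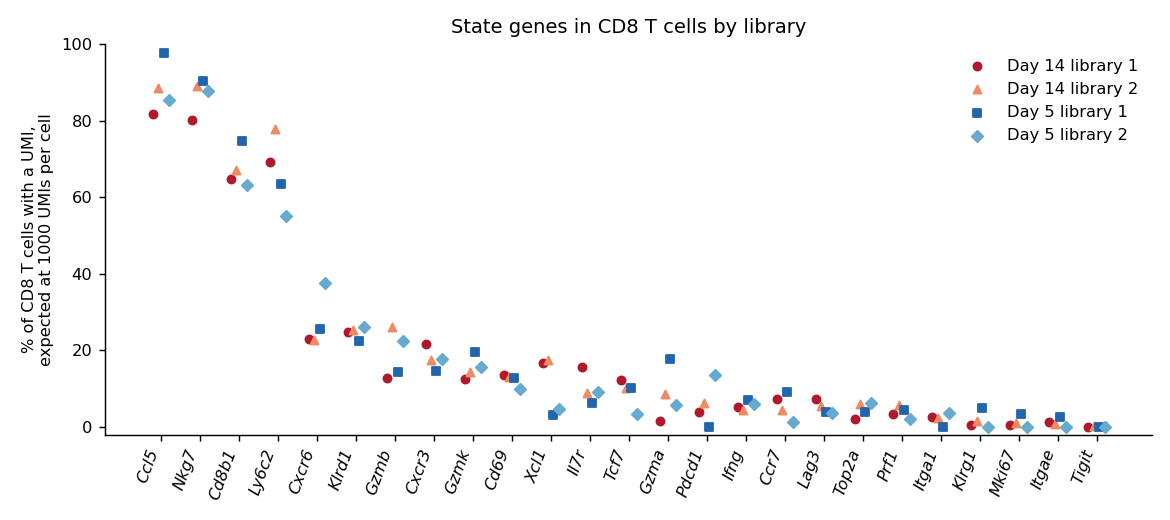
Percentage of CD8 T cells expected to hold a UMI of the state genes shown, at 1000 UMIs per cell, for each library, with genes ordered by their mean. Ccl5 and Nkg7 lead in every library, Xcl1 sits at 16.7% and 17.4% on day 14 and at 3.20% and 4.59% on day 5, and Gzmb differs more between the day 14 libraries than between days.

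Cell cycle genes were detected in a minority. With a cell counted as cycling at 2 or more UMIs of 7 genes, Mki67, Top2a, Birc5, Cdk1, Ccnb2, Ccna2 and Pclaf, 25 of 240 CD8 T cells counted on day 14 (10.4%, exact 95% interval 6.86 to 15.0%), against 1 of 32 on day 5 (3.13%, 0.0791 to 16.2%). The intervals overlap, and the day 14 libraries had 8.22% and 13.8%. Other T cells had 56 of 946 on day 14 (5.92%) and 1 of 74 on day 5 (1.35%). These shares were not thinned, and CD8 T cells were deeper than other T cells, at medians of 2725 and 3010 UMIs against 2045 and 2346 on day 14.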

How the data were processed

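The 4 libraries hold leukocytes of the ischemic hemisphere, profiled with 10x Genomics 3' v2 chemistry. The authors deposited UMI counts per gene and barcode, not normalized. The submitters' processing notes name GRCm38, Seurat 2.3.4 and Cell Ranger 3.0.1. The aligner settings and annotation release are not given in the sources used here. The libraries held 9288054 and 10759904 UMIs on day 14 and 10730791 and 13610119 on day 5, in 2583, 2313, 2543 and 3486 barcodes. Barcodes under 200 genes (3) or over 10% mitochondrial UMIs (81) were left out. No doublet caller was run; the phagocyte and B cell limits remove some mixed cells.

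UMI counts were summed per library and cell set and tested with edgeR 4.0.16 in R 4.3.3 (TMM, filterByExpr, quasi-likelihood F test, Benjamini-Hochberg over all genes tested, two-sided, threshold 0.05). Fold changes are log2 values with SE from the F statistic. Terms were day within CD8 T cells, the cell set with the library as a block, and set by day. DESeq2 1.42.0 was an alternative. Scripts were tested on simulated data. CPM values use all UMIs of a set. Gene types came from GENCODE M21, matched by gene ID for 31011 of 31053 genes; promoters came from RefSeq. Named genes were the 12 largest changes each way among calls with 50 CPM or more in the higher group and no overlap between days (or the same sign in both day 14 libraries between sets), without receptor segments, ribosomal, mitochondrial, Gm or Rik genes, plus members of fixed lists. The members, lists and motifs were chosen with earlier results of these data known. Trgc1, a listed marker, was not matched. Some genes and the results that need them are not reported here.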

Additional observations from a re-analysis of the deposited data

Results flagged for a closer look

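The effect of the day differed between CD8 and conventional CD4 T cells for 5 genes in a test of the difference itself (edgeR set by day term, Benjamini-Hochberg). The adjusted p was 2.92e-05 for Cd74, 0.00015 for H2-Ab1, 0.000503 for H2-Aa, 0.00185 for H2-Eb1 and 0.0197 for Klf2. In CD8 T cells Cd74 was at 2278 and 2578 CPM on day 14 and 12400 and 7942 CPM on day 5. The CD4 values of day 5 come from 4 and 3 cells, in which H2-Eb1 and Klf2 had no UMI. Without the cells of 20 or more MHC class II UMIs, which were chosen by the same class II genes, 3 genes passed, 2 higher and 1 lower. The cause of the Klf2 difference was not tested.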

How the results depend on the processing

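CD8 T cells were the larger share of all cells on day 14 in every alternative run (3.53 to 5.36 percentage points) and the smaller share of T cells (-12.6 to -5.26 points). By day, 41 genes passed; 144 did with no filter on low counts, 270 with no phagocyte limit, and 34 to 70 with 1 library left out. Without cells of 20 or more MHC class II UMIs it was 26, without ribosomal protein genes and pseudogenes 13, and without both 8; these were added after the data were seen. H2-Ab1 turned to 2.01 and 2.05 and H2-Aa to 0.74 and 0.78 without those cells, alone and with the ribosomal genes also left out, and Tgfbi to 0.056 with no phagocyte limit. Replicate numbers share only a number (correlation of deviations -0.0341), and the replicate block gave 38 calls by day. Against conventional CD4 T cells, 35 passed, 67 with no filter, 15 with no library block and 4 to 61 with 1 library left out; DESeq2 gave 31 higher and 20 lower, against 14 and 21. Against all other T cells, 163 passed, 259 with no filter, 85 with no library block, 418 in the day 14 libraries alone, 261 without the class II cells and 24 to 273 with 1 library left out. The day effect differed from CD4 T cells in 5 genes, 19 with no filter, 3 without the class II cells and 1 to 6 with 1 library left out; from all other T cells in 0, and in 0 to 24 with 1 library left out. State genes without overlap numbered 9, 5 at 1500 UMIs and 12 to 22 with 1 library left out, where a lone library overlaps less readily. Except where the construction shows it, the cause was not tested. Of the alternatives for named genes, 79 against CD4 T cells, 4 against other T cells and 47 by day lost the call without turning. Depth limits day 5, where 32 CD8 and 7 CD4 T cells carry every comparison.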
